A study of Mus musculus with 12 samples.

Results

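Hair keratins and keratin-associated proteins are the building material of the hair shaft and of the sheath that moulds it. The genes described here are those whose symbol starts with Krtap, or is one of the keratins Krt25 to Krt28, Krt31 to Krt36, Krt71 to Krt75 and Krt81 to Krt86, and which had an expected count of 10 or more in at least 3 of the 12 libraries. Symbols of this kind were found for 79 genes, 21 keratins and 58 Krtap genes, in a table of 55416 genes. The count rule was met by 10 of the 79: Krtap3-2, Krtap3-3, Krt75, Krt32, Krt82, Krt84, Krt25, Krt27, Krt28 and Krt71.

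Keratins form filaments as pairs of a type I and a type II chain, and each layer of a hair follicle uses its own pairs. The inner root sheath makes Krt25 to Krt28 with Krt71 to Krt74, the companion layer between the sheaths makes Krt75, and the cortex and cuticle of the shaft make the cysteine-rich hair keratins, which are tied together by Krtap proteins through disulfide bonds. Shaft and inner root sheath are built in the bulb of growing (anagen) follicles and are not made in resting (telogen) follicles.

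Bulk mRNA of mouse ear skin was measured on day 6 in 4 groups of 3 libraries, all from C57BL/6 mice 8 to 12 weeks old. UTX_Veh received DMSO, the vehicle, and its label names no imiquimod; the labels do not explain UTX. IMQ_Veh received imiquimod, a Toll-like receptor 7 agonist that provokes psoriasis-like inflammation, as 20.8 mg of a 5% cream (Aldara) on the dorsal ear every day, together with DMSO. IMQ_GW3965 received the same cream and, from day 3, 20 mg/kg per day of GW3965, which activates the liver X receptors, and IMQ_Troglitazone the cream and 150 mg/kg per day of troglitazone, an agonist of PPARγ. Since no cream is named for UTX_Veh, cream base and imiquimod cannot be told apart. The libraries of a group are not described as coming from different animals, and p-values measure only the spread between them, which may be technical. As a check of the tissue label, the summed level of 8 keratinocyte markers was between 20532 and 23859 CPM (counts scaled to a common library size) in UTX_Veh and between 48988 and 73142 in the other groups.

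Total expected counts per library lay between 18242074 and 25641602. In IMQ_GW3965 replicate 3, 11.6% of the counts fell in the feature ENSMUSG00000119584. The libraries UTX_Veh replicate 3, IMQ_Veh replicate 1 and IMQ_Troglitazone replicate 3 stood apart in the hair genes themselves. Of the 69 genes below the count rule, 53, 48 and 41 had a count above 0 in these libraries, against 5 to 16 in each of the other 9. Their counts summed to 311.8, 175.3 and 142.3, against 6.0 to 42.0 in each of the others, so that 81% of all reads of these genes came from 3 libraries that held 25.3% of the depth. Each of the 3 belongs to a different group. Results that rest on these libraries are given with and without them. In bulk samples, fewer cells of a type and less RNA per cell cannot be told apart.

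**Figure D1:**
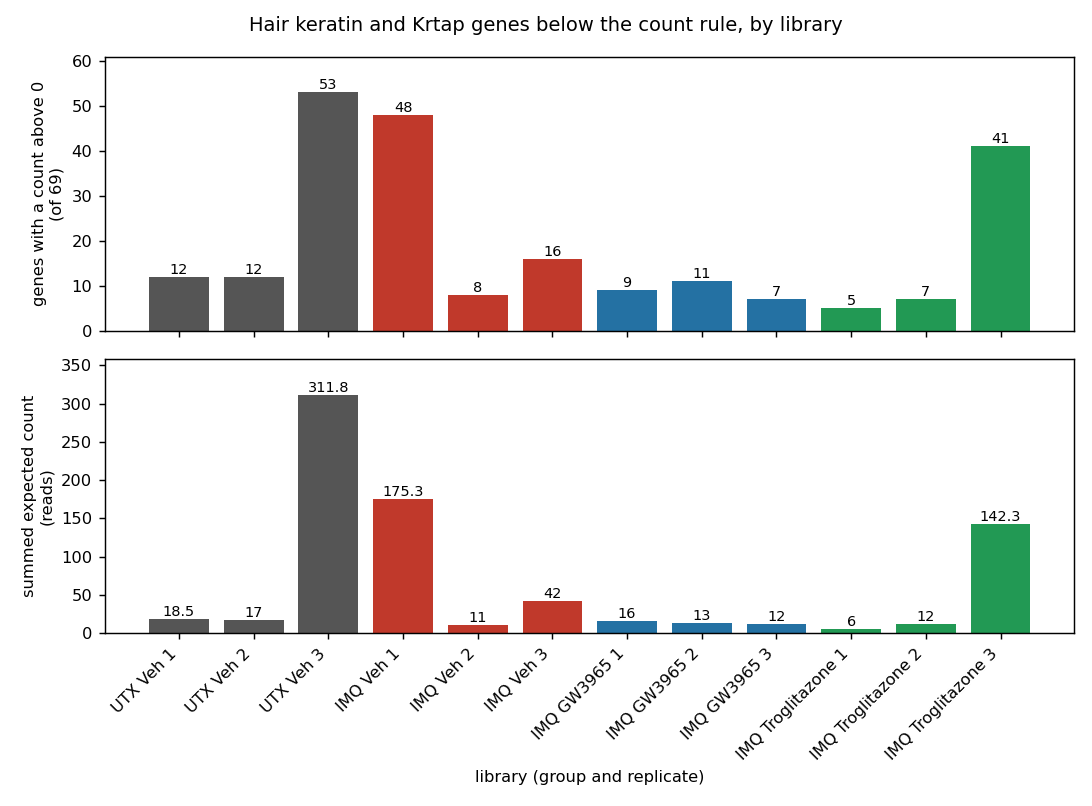
The upper bars give how many of the 69 hair keratin and Krtap genes below the count rule had an expected count above 0 in each library, and the lower bars their summed expected count in reads. UTX_Veh replicate 3 (53 genes), IMQ_Veh replicate 1 (48) and IMQ_Troglitazone replicate 3 (41) exceed the other 9 libraries, which have 5 to 16.

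The 69 genes below the rule are mostly the classic shaft products. They include all 16 high glycine-tyrosine Krtap genes, all 17 ultrahigh-sulfur Krtap genes, 18 of 20 high-sulfur Krtap genes, 6 of 7 type I and 3 of 5 type II hair keratins. Of these 69, 59 were detected in some library and 10 were at 0 in all 12. None of the 59 was detected only outside the 3 libraries named above, 19 were detected in those 3 only, 35 in each of the 3, and 56 had their highest count in one of them.

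Krtap7-1, of the high glycine-tyrosine family of the hair cortex, came closest to the rule with 2 libraries of 10 or more: it had 24 counts in UTX_Veh replicate 3, 14 in IMQ_Veh replicate 1, 3 in IMQ_Veh replicate 3, 2 in IMQ_Troglitazone replicate 3, 1 in UTX_Veh replicate 2 and 0 in the other 7. Krtap8-1, of the same class, had 15, 9 and 1 counts in UTX_Veh replicate 3, IMQ_Veh replicate 1 and IMQ_Troglitazone replicate 3, and 0 elsewhere. Krt35, a type I hair keratin of the early shaft, had 11 counts in IMQ_Troglitazone replicate 3, 5 in UTX_Veh replicate 3 and 5 in IMQ_Veh replicate 3, and at most 1 in the other 9. Just inside the rule, Krt82 reached 10 counts in exactly 3 libraries. The genes below the rule are at a few reads per library and were not compared between groups.

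The members that passed the rule did not share this pattern to the same extent. The 3 libraries held 90.1% of the counts of Krt71, 79.3% of Krt25 and 60.1% of Krt27, but 20.0% of Krt84, 21% of Krt75, 21.1% of Krt32 and 29.4% of Krtap3-2, close to their 25.3% share of the depth. Krt28 (32.7%), Krt82 (36.6%) and Krtap3-3 (43.6%) lay between.

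Krtap3-2 (ENSMUSG00000069721, chr11:99555823-99556853, GRCm38, minus strand) and Krtap3-3 (ENSMUSG00000069722, chr11:99550130-99550865, minus strand) are neighbours in the cluster of type I keratins and encode high-sulfur proteins of the hair cortex. Their coding sequences bear on how far the values of each can be trusted. In GENCODE M21, the coding sequence of Krtap3-2 (chr11:99556501-99556800) and that of Krtap3-3 (chr11:99550510-99550809) have the same letters at all 300 bases, so reads from this stretch fit both genes. The full transcripts, of 1031 and 736 bases, differ outside it: 600 of 1034 aligned positions are identical, and the longest identical run is 333 bases. The next copy, Krtap3-1 (chr11:99566287-99566583), which was below the rule, is set against Krtap3-2 here to show how much more a distinguishable copy differs. Capitals mark the bases that differ between them, 5′ to 3′ on the coding strand, 54 of 300 aligned positions, with 246 (82%) identical and a longest shared run of 98.
Krtap3-2: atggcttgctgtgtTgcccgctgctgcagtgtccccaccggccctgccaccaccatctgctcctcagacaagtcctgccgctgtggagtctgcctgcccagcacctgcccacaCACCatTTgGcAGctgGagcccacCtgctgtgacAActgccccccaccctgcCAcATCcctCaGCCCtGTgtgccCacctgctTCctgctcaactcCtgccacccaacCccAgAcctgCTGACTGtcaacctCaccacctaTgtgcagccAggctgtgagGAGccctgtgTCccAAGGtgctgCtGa
Krtap3-1: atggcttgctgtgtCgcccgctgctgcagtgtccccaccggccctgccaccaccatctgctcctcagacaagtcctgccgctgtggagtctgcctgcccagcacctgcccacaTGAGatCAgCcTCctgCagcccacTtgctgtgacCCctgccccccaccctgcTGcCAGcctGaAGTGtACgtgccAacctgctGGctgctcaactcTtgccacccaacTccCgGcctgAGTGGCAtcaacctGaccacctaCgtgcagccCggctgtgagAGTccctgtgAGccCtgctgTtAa
The division of reads between Krtap3-2 and Krtap3-3 by RSEM is therefore uncertain, and results for the sum of both are given beside those of Krtap3-2.

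The stretches before the starts of these genes differ. They are shown for 3 Krtap and hair keratin genes whose change on imiquimod kept its call in every fit that left out 1 library. The 250 bases before the RefSeq start (GRCm38.p6) of every member were searched on both strands for a TATA box (TATANAA), an AP-1 site (TGANTCA, which reads the same on both strands) and a LEF/TCF core (CTTTGA). Capitals mark the matches.
Krtap3-2, chr11:99556854-99557103, minus strand: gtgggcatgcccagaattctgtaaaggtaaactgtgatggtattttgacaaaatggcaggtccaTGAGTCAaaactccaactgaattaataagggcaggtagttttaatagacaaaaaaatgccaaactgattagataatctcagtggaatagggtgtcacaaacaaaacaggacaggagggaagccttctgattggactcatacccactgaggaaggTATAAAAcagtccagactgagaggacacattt
Krt32, chr11:100088270-100088519, minus strand: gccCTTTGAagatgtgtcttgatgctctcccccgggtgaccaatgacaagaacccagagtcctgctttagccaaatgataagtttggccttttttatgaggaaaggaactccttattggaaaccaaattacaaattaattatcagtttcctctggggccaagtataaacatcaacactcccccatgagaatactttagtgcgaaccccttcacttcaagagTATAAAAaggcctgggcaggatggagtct
Krt84, chr15:101532821-101533070, minus strand: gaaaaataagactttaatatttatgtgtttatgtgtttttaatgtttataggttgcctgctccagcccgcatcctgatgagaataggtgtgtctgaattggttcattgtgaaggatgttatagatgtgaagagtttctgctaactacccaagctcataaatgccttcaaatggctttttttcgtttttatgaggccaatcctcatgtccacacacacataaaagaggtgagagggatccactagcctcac
TATANAA was found in 7 of the 10 members, against 10.4% of 32851 mouse promoter windows of that length. Its first base lay 29 to 33 bases before the start in Krtap3-2, Krtap3-3, Krt32, Krt25 and Krt28, 42 in Krt71 and 17 in Krt27. Krt28 held a further match at 207 bases. Krt75, Krt82 and Krt84 held no match to these letters. TGANTCA was found in 1 member, Krtap3-2, at 186 bases, against 6.75% of windows, and CTTTGA in Krt28 and Krt32, against 13.8%. A match is a description of letters, not a binding site.

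Compared per length, as the mean of the deposited TPM (transcript abundance scaled for length and depth) in UTX_Veh, Krtap3-2 was by far the most abundant member at 69.9 ± 8.65 (SD, n = 3). Krt75 followed with 6.77, Krt32 with 4.98 and Krtap3-3 with 4.46, then Krt71 with 2.0, Krt27 with 1.41, Krt25 with 1.26, Krt84 with 0.813, Krt28 with 0.54 and Krt82 with 0.04. In IMQ_Veh the order changed: Krt75 led with 9.99 TPM, Krt84 came next with 4.13, and Krtap3-2 stood at 1.46 ± 1.13. The means of Krt71, Krt27 and Krt25 in UTX_Veh come mainly from replicate 3 and do not rank these genes.

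**Figure D2:**
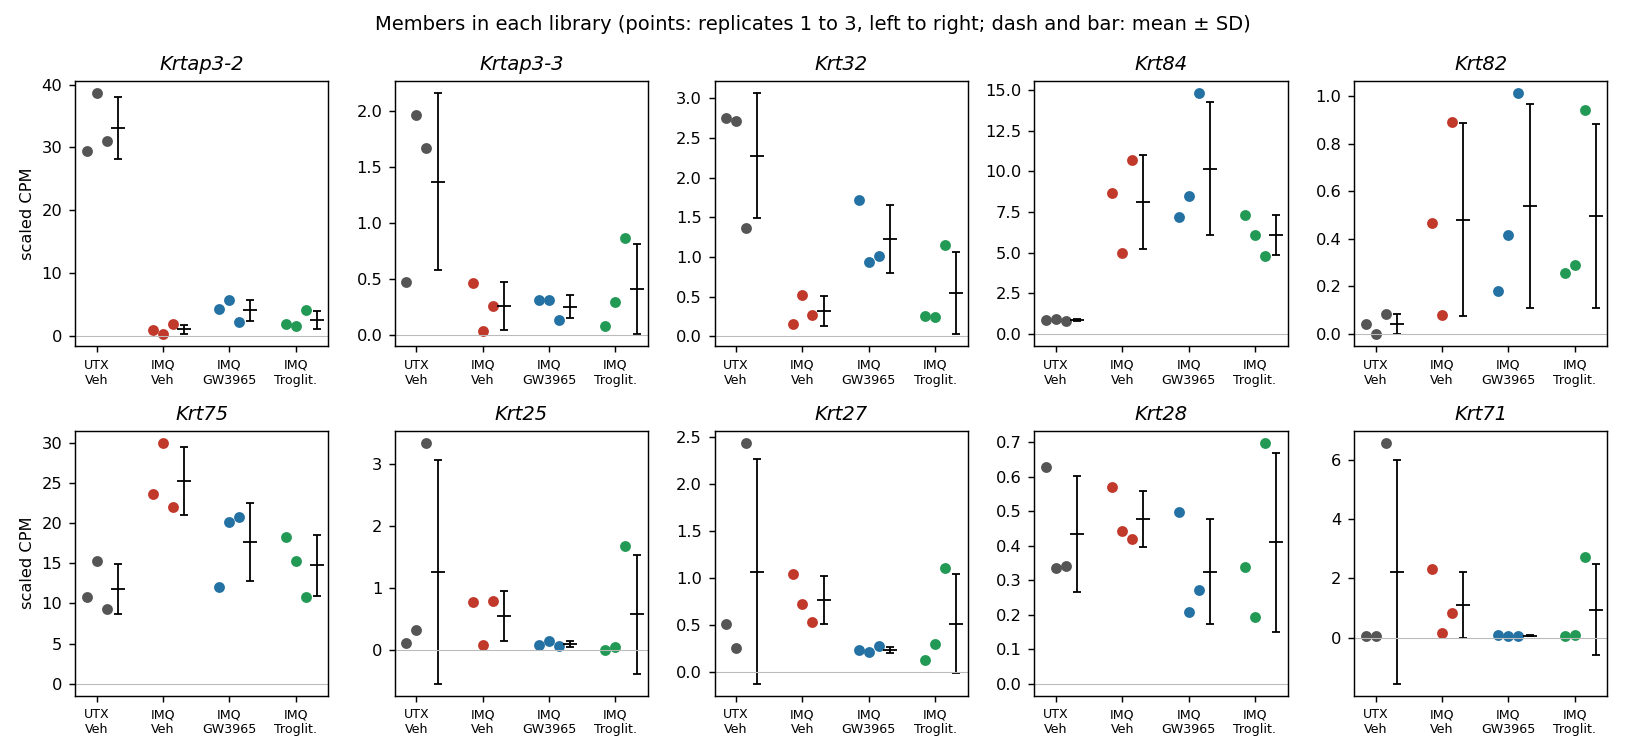
Each panel gives 1 member in CPM after TMM scaling; points are the 3 libraries of a group and the dash and bar their mean ± SD. Krtap3-2 and Krt32 are highest in UTX_Veh, Krt84 is lowest there, and Krt25, Krt27 and Krt71 are carried by UTX_Veh replicate 3 and IMQ_Troglitazone replicate 3.

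The comparison of IMQ_Veh with UTX_Veh asks what imiquimod cream did to these genes. Krtap3-2 and Krt32 fell. Krt84, a type II hair keratin, and Krt75, of the companion layer, rose, so members moved in both directions. Of the 10 members, 3 were higher and 3 lower by edgeR's quasi-likelihood test at an adjusted p under 0.05, which is 60%. Krt82, among the higher, met the count rule only in libraries with imiquimod, and Krtap3-3, among the lower, mainly in UTX_Veh. The share was near that of all 17130 genes tested, of which 61.9% were called, 33% higher and 28.9% lower, and the members' count is read against that background. Their median log2 fold change was -0.75, against 0.008 over all genes, but it was 0.97 without UTX_Veh replicate 3 and lay between -1.27 and -0.50 without any other single library of the 2 groups. The sign of the median thus rests on that library and on the method. With all libraries kept, the median was 0.14 by limma-voom and 0.09 with a replicate block.

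Krtap3-2 was at 29.5, 38.7 and 31.1 CPM in UTX_Veh replicates 1 to 3 and at 0.882, 0.322 and 1.78 CPM in IMQ_Veh. The lowest UTX_Veh library was far above the highest IMQ_Veh library. The mean was 33.1 ± 4.91 against 0.996 ± 0.738 CPM (SD, n = 3), a log2 fold change of -5.10 ± 0.53 (SE) with an adjusted p of 1.24e-05 (edgeR). It was -5.83 without IMQ_Veh replicate 3. Summed with Krtap3-3, with which it shares its coding sequence, the level was 30, 40.6 and 32.7 CPM against 1.35, 0.362 and 2.05. The log2 fold change of the sum was -4.82 ± 0.54 with an adjusted p of 2.12e-05 (edgeR). The fall of both copies together thus does not depend on how reads were divided between them, but the sum cannot show which copy fell.

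Krtap3-3 was assigned 0.472, 1.97 and 1.67 CPM in UTX_Veh and 0.467, 0.040 and 0.262 CPM in IMQ_Veh. It met the count rule through UTX_Veh, whose 3 libraries were joined only by IMQ_Troglitazone replicate 3. UTX_Veh replicate 1 (0.472) and IMQ_Veh replicate 1 (0.467) nearly met. The log2 fold change was -2.45 ± 0.80 with an adjusted p of 0.0184 (edgeR), and the call was lost without UTX_Veh replicate 2 (adjusted p = 0.0649), UTX_Veh replicate 3 (0.0518) or IMQ_Veh replicate 2 (0.0577, edgeR). Without IMQ_Veh replicate 1 the log2 fold change was -3.27.

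Krt32 (ENSMUSG00000046095, chr11:100080848-100088226, minus strand), a type I keratin of the hair cuticle, was at 2.75, 2.72 and 1.37 CPM in UTX_Veh and at 0.156, 0.523 and 0.262 CPM in IMQ_Veh. The groups did not overlap. Its level fell by 2.79 ± 0.61 on the log2 scale (SE, adjusted p = 0.0019, edgeR), and by 3.46 without IMQ_Veh replicate 2.

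Krt84 (ENSMUSG00000044294, chr15:101525026-101532820, minus strand), a type II hair keratin that is also known from the filiform papillae of the tongue, went the other way. It was at 0.865, 0.920 and 0.769 CPM in UTX_Veh and at 8.66, 4.99 and 10.7 CPM in IMQ_Veh. Every IMQ_Veh library lay above every UTX_Veh library, with means of 8.12 ± 2.9 and 0.851 ± 0.0762 CPM (SD, n = 3). The log2 fold change was 3.24 ± 0.36 with an adjusted p of 2.16e-05 (edgeR).

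Krt82 (chr15:101541214-101550667), the type II keratin of the hair cuticle, was barely detected. It had 1, 0 and 2 expected counts in UTX_Veh and 9, 2 and 17 in IMQ_Veh, so UTX_Veh replicate 3 and IMQ_Veh replicate 2 had the same count. It met the count rule only through libraries with imiquimod: replicate 3 of IMQ_Veh, of IMQ_GW3965 (15) and of IMQ_Troglitazone (23). Its comparison with UTX_Veh thus draws partly on counts that selected it. The summed counts were 3 and 28, a ratio of unscaled CPM of 8.8 with an exact 95% interval of 2.72 to 45.2, which covers counting error only. Its adjusted p was 0.0268 (edgeR), and the call was lost without UTX_Veh replicate 1 (0.0696), UTX_Veh replicate 2 (0.078), IMQ_Veh replicate 1 (0.053) or IMQ_Veh replicate 3 (0.107, edgeR).

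Krt75 (ENSMUSG00000022986, chr15:101563345-101573904, minus strand), the type II keratin of the companion layer, was at 10.8, 15.3 and 9.36 CPM in UTX_Veh and at 23.7, 30.0 and 22.1 CPM in IMQ_Veh. The groups did not overlap, and the rise was 1.10 ± 0.26 on the log2 scale (SE, adjusted p = 0.003, edgeR). It was a smaller change than that of Krt6a, Krt6b and Krt16, keratins of wounded and psoriatic epidermis, whose summed level was 50.7 to 132 CPM in UTX_Veh and 19953 to 29479 CPM in IMQ_Veh.

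Among the inner root sheath members, no change was called, and 1 library set the UTX_Veh mean of 3 of them. Krt71 (chr15:101733949-101743109), the type II partner of this layer, was at 0.039, 0.042 and 6.58 CPM in UTX_Veh and at 2.33, 0.161 and 0.840 CPM in IMQ_Veh. UTX_Veh replicate 3 was the highest of these 6 libraries, while the other UTX_Veh libraries were the lowest. Its log2 fold change was -1.02 ± 1.46 with an adjusted p of 0.56 (edgeR), and 4.56 without UTX_Veh replicate 3, an opposite direction that was not called either (adjusted p = 0.068).

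Krt25 (chr11:99315516-99322951), a type I keratin of the same layer, was at 0.118, 0.334 and 3.33 CPM in UTX_Veh and at 0.778, 0.080 and 0.787 CPM in IMQ_Veh. The log2 fold change of -1.23 ± 1.27 had an adjusted p of 0.415 (edgeR) and turned to 1.22 without UTX_Veh replicate 3. Krt27 (chr11:99345565-99351104) was at 0.511, 0.251 and 2.44 CPM in UTX_Veh and at 1.04, 0.724 and 0.525 CPM in IMQ_Veh. Its log2 fold change was -0.47 ± 0.77 with an adjusted p of 0.608 (edgeR), turning to 0.98 without UTX_Veh replicate 3.

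Krt28 (chr11:99364872-99374903), the remaining type I member of the layer, showed no single leading library: it was at 0.629, 0.334 and 0.342 CPM in UTX_Veh and at 0.571, 0.442 and 0.420 CPM in IMQ_Veh. These overlap throughout, with an adjusted p of 0.837 (edgeR). Trichohyalin (Tchh), the structural protein of the inner root sheath that these filaments are embedded in, was at 6.72, 6.56 and 19.1 CPM in UTX_Veh, also highest in replicate 3, and at 16.7, 14.8 and 11.02 CPM in IMQ_Veh.

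Markers of other cell types moved in the same comparison. The summed level of 5 dermal papilla markers was 171 to 237 CPM in UTX_Veh and 29.7 to 80.2 in IMQ_Veh. Most of this sum was Corin, at means of 181 and 39.1 CPM, while Sox18 was at 6.83 and 6.24. That of 10 sebaceous gland markers was 5937 to 6334 against 1270 to 2838 CPM, and that of 12 skeletal muscle markers 13493 to 15444 against 1745 to 6777 CPM. Most of the sebaceous sum was Scd1, at means of 5461 and 1780 CPM. Of the 10 sebaceous genes, 7 were lower and 3 not called, among them Awat1 at means of 53.1 and 49.6 CPM. Neutrophil markers (7 genes) went from 7.77 to 23.2 CPM up to 5735 to 10087. Nearly all of the IMQ_Veh sum was S100a8 and S100a9, at means of 2939 and 5417 CPM. The next most abundant, Cxcr2, went from a mean of 4.67 to 47.2 CPM, and all 7 were called higher. Of the 5 dermal papilla genes, 3 were lower and none higher, where 28.9% of all genes were lower and 33% higher. Also lower were 8 of 9 tested cartilage genes, 3 of 6 adipocyte genes and 1 of 6 fibroblast genes, with none higher. The part of such shifts in the values of the hair genes was not tested.

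The genes that drive and surround the hair program were read from lists chosen with earlier results of these data known; 61.9% of all genes were called in this comparison. Of 20 tested genes of hair cycle signalling, 12 were lower and 2 higher in IMQ_Veh, with a median log2 fold change of -0.75, and of 15 genes of the bulge and outer root sheath 10 were lower and 1 higher, with a median of -0.64. Among the signals, the ectodysplasin receptor Edar fell by 2.66 ± 0.38 on the log2 scale (adjusted p = 0.000122, edgeR) and Wnt10b, a growth-promoting Wnt ligand, by 2.58 ± 0.30 (3.03e-05). In the bulge list, Krt24 fell by 4.02 ± 0.88 (6.36 without IMQ_Veh replicate 2) and Krt15, a keratin of bulge stem cells, by 2.62 ± 0.28. Bulk values do not show in which cells Krt15 fell. Other genes of the list hardly moved: Lgr5 was at means of 6.05 CPM in UTX_Veh and 6.13 in IMQ_Veh, and Lhx2 at 7.37 and 6.41. In the dermal papilla list, Corin, a serine protease, fell by 2.21 ± 0.34 and the R-spondin Rspo3 by 1.95 ± 0.27. Corin fell by 2.81 without IMQ_Veh replicate 3 and IMQ_GW3965 replicate 3.

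Of 17 transcription factors of the follicle, 6 were higher and 6 lower, with a median of -0.04. The homeobox factor Msx1 fell by 2.05 ± 0.25 on the log2 scale (adjusted p = 3.34e-05, edgeR) while Ovol1, a zinc finger factor of skin and hair, rose by 1.64 ± 0.15. Hoxc13, which activates hair keratin genes, was at 2.52, 3.55 and 3.08 CPM in UTX_Veh and at 1.76, 3.14 and 1.31 CPM in IMQ_Veh, and the groups overlapped. Of 20 structural genes of shaft and sheath, 13 were higher and 4 lower, with a median of 0.59. Those with the largest folds are also made in the epidermis between follicles: Krt17 (log2 3.65 ± 0.34), the transglutaminase Tgm3 (3.46 ± 0.25) and the cornified envelope protein Sprr1a (3.45 ± 0.21).

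**Figure D3:**
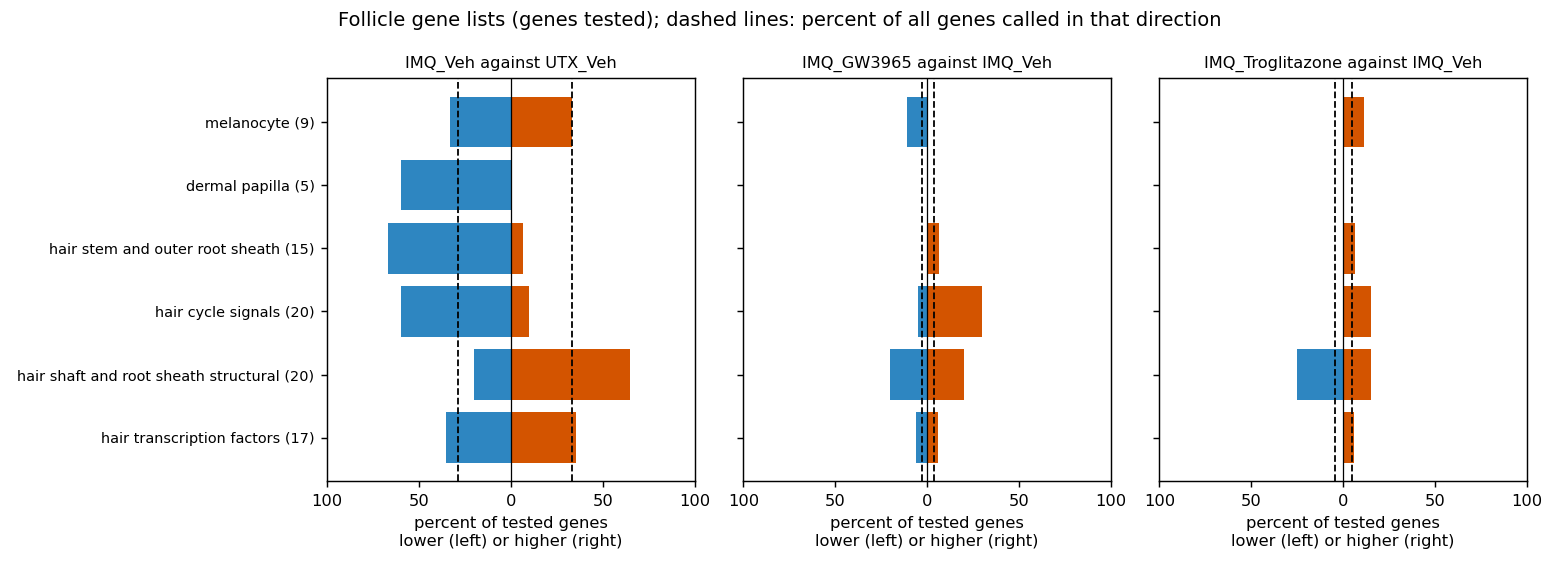
Bars give the percent of tested genes of 6 follicle gene lists (number tested in parentheses) that were called higher, to the right, or lower, to the left, in 3 comparisons; dashed lines mark the percent of all genes called in that direction. Of the 6 lists plotted, in IMQ_Veh against UTX_Veh the hair cycle (12 of 20), bulge (10 of 15) and dermal papilla (3 of 5) lists reach furthest to the left, and the structural list (13 of 20) furthest to the right.

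The comparisons of IMQ_GW3965 and IMQ_Troglitazone with IMQ_Veh ask whether either drug altered the hair genes of imiquimod-treated skin. Both share the IMQ_Veh libraries. Higher Krtap3-2 in IMQ_GW3965 was the single call among the members in either comparison, and it was lost in 4 of the 6 fits that left out one of the libraries compared. In IMQ_GW3965, 1 of 10 members was called (10%), against 6.59% of all genes, 3.71% higher and 2.88% lower. In IMQ_Troglitazone, 0 of 10 were called by edgeR, against 9.34% of all genes, 4.69% higher and 4.65% lower; 2 members had an unadjusted p under 0.05, and DESeq2 called 2, 1 higher and 1 lower, and limma-voom 0.

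Krtap3-2 was at 4.25, 5.61 and 2.23 CPM in IMQ_GW3965, all above the 0.322 to 1.78 CPM of IMQ_Veh and far below the 29.5 to 38.7 CPM of UTX_Veh. The log2 fold change was 2.08 ± 0.53 (SE) with an adjusted p of 0.0404 (edgeR). The call was lost without IMQ_Veh replicate 1 (adjusted p = 0.127), IMQ_Veh replicate 2 (0.0856), IMQ_GW3965 replicate 1 (0.132) or IMQ_GW3965 replicate 2 (0.111), with log2 fold changes of 1.62 to 2.05, and without IMQ_Veh replicate 3 the value was 2.82 (0.00609, edgeR). It was also lost for the sum of Krtap3-2 and Krtap3-3, at 4.57, 5.92 and 2.37 CPM (log2 1.83 ± 0.54, adjusted p = 0.0621, edgeR).

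In IMQ_Troglitazone, Krtap3-2 was at 1.86, 1.503 and 4.06 CPM, overlapping IMQ_Veh. Its highest value was in replicate 3, a library that stood apart in the genes below the rule. The log2 fold change of 1.37 ± 0.54 had an adjusted p of 0.124 (edgeR), 0.0223 without IMQ_Veh replicate 3, where the log2 fold change was 2.11, and 0.709 without UTX_Veh replicate 3, IMQ_Veh replicate 1 and IMQ_Troglitazone replicate 3, where it was 0.75. For the sum of both copies it was 1.26 ± 0.55 (adjusted p = 0.157).

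Krt32 was at 1.72, 0.936 and 1.01 CPM in IMQ_GW3965, above all IMQ_Veh libraries (0.156 to 0.523 CPM), but the log2 difference of 1.91 ± 0.63 did not pass (adjusted p = 0.0858, edgeR). In IMQ_Troglitazone it was at 0.254, 0.242 and 1.149 CPM, with a log2 difference of 0.77 ± 0.67 (adjusted p = 0.479, edgeR) that turned to -0.38 without IMQ_Troglitazone replicate 3.

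Krt84 stayed at 7.19, 8.47 and 14.8 CPM in IMQ_GW3965 and at 7.28, 6.11 and 4.80 CPM in IMQ_Troglitazone, each overlapping IMQ_Veh (4.99 to 10.7 CPM). The log2 differences were 0.32 ± 0.31 (adjusted p = 0.55) and -0.42 ± 0.31 (0.403, edgeR). All 9 libraries with imiquimod thus lay above the UTX_Veh maximum of 0.920 CPM.

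Krt75 was at 12.1, 20.2 and 20.8 CPM in IMQ_GW3965 and at 18.3, 15.3 and 10.8 CPM in IMQ_Troglitazone. Each of these values was below the lowest IMQ_Veh library (22.1 CPM), and they overlapped UTX_Veh (9.36 to 15.3 CPM). The log2 differences from IMQ_Veh, -0.52 ± 0.25 (adjusted p = 0.219) and -0.78 ± 0.25 (0.0746, edgeR), did not pass, although without IMQ_Veh replicate 3 the latter was -0.87 with an adjusted p of 0.0387.

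The other members stayed at low levels in both drug groups. Krtap3-3 was between 0.135 and 0.316 CPM in IMQ_GW3965 and between 0.085 and 0.862 in IMQ_Troglitazone, and Krt82 between 0.181 and 1.01 and between 0.254 and 0.944. Krt71 was at 0.090, 0.052 and 0.068 CPM in IMQ_GW3965 and at 0.042, 0.097 and 2.71 in IMQ_Troglitazone, where again replicate 3 was the high library. Krt25 was at most 0.156 CPM in IMQ_GW3965 and at 0.000, 0.048 and 1.68 in IMQ_Troglitazone, and Krt27 at most 0.270 and at 0.127, 0.291 and 1.11. Krt28 ranged from 0.208 to 0.497 and from 0.194 to 0.698 CPM.

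**Figure D4:**
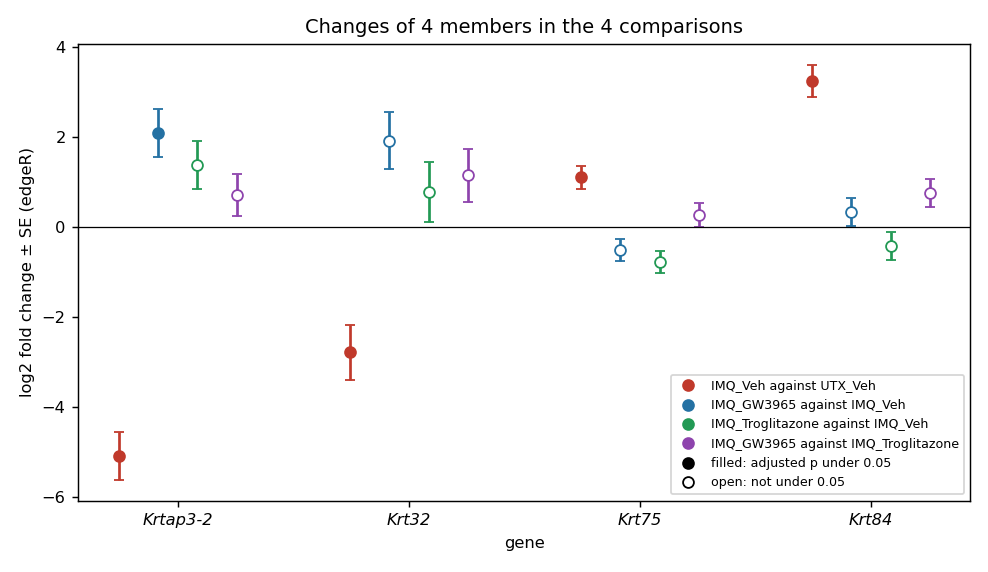
Points give the edgeR log2 fold change and bars its SE for 4 members, Krtap3-2, Krt32, Krt75 and Krt84. Filled points have an adjusted p under 0.05. Krtap3-2 lies at -5.10 on imiquimod and at 2.08 with GW3965 against imiquimod alone, and no point of the troglitazone comparison or of the comparison between the drugs is filled.

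Between the drugs, given at different doses, none of the 10 members was called by edgeR, against 1.86% of all genes, 1.08% higher and 0.782% lower; 1 member (Krt84) had an unadjusted p under 0.05, and DESeq2 and limma-voom called 0. The log2 difference, IMQ_GW3965 minus IMQ_Troglitazone, was 0.71 ± 0.47 for Krtap3-2 (adjusted p = 0.503), 1.14 ± 0.58 for Krt32 (0.367), 0.26 ± 0.26 for Krt75 (0.685) and 0.74 ± 0.31 for Krt84 (0.266, edgeR).

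Around the members, some follicle genes were higher with the drugs, Bmp2 and Msx1, which had fallen on imiquimod, among them. Of the 20 hair cycle signals, 6 were higher and 1 lower in IMQ_GW3965 and 3 higher and none lower in IMQ_Troglitazone, against 6.59% and 9.34% of all genes called. The higher signals numbered 9 and 9 without IMQ_Veh replicate 3, and 1 to 3 and 1 to 2 without any other single library compared. Bmp2, the largest rise of this list in both comparisons, was at 7.57, 9.61 and 7.35 CPM in IMQ_Veh, at 34.4, 27.8 and 19.4 in IMQ_GW3965 and at 24.3, 22.6 and 30.8 in IMQ_Troglitazone. The log2 fold changes were 1.73 ± 0.22 (adjusted p = 0.00417) and 1.66 ± 0.22 (0.00632, edgeR). The latter was not called without UTX_Veh replicate 3, IMQ_Veh replicate 1 and IMQ_Troglitazone replicate 3 (1.46, adjusted p = 0.119). Msx1 rose by 1.35 ± 0.25 (0.0163, and 0.0789 without IMQ_GW3965 replicate 1) and by 1.58 ± 0.25 (0.00868, and 0.119 without those 3 libraries) on the log2 scale.

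Of the 20 structural genes, 4 were higher and 4 lower in IMQ_GW3965 and 3 higher and 5 lower in IMQ_Troglitazone. That is 40% in each, against 6.59% and 9.34% of all genes. Mt4, a metallothionein of differentiating squamous epithelium, was at 21.9, 14.04 and 16.7 CPM in IMQ_Veh and at 91.3, 78.3 and 57.1 CPM in IMQ_GW3965, a rise of 2.11 ± 0.29 on the log2 scale (adjusted p = 0.006, edgeR). Dsc2, a desmosomal cadherin, was at 66.5, 37.3 and 54.1 CPM in IMQ_Veh and at 20.3, 22.02 and 11.6 CPM in IMQ_Troglitazone, a fall of 1.55 ± 0.28 (adjusted p = 0.0126, edgeR) that was not called without IMQ_Veh replicate 1 (0.053). Mt4 was also higher in IMQ_Troglitazone (log2 1.29 ± 0.29, adjusted p = 0.0233), and Dsc2 lower in IMQ_GW3965 (log2 -1.72 ± 0.28, 0.0101, edgeR). Neither gene was called between the drugs (adjusted p = 0.162 and 0.827, edgeR). Among 17 transcription factors, 1 was higher and 1 lower with GW3965 (11.8%) and 1 higher with troglitazone (5.88%). Of 15 bulge genes, 1 was higher in each comparison (6.67%), near the shares of all genes. These counts rest on single libraries: without IMQ_Veh replicate 1 the structural list had 1 higher and 1 lower gene in IMQ_GW3965 and 1 higher and 0 lower in IMQ_Troglitazone, and without IMQ_Veh replicate 3 it had 5 and 5, and 4 and 6. Over the 8 fits that left out libraries, higher bulge genes numbered 0 to 4 and 0 to 3, higher transcription factors 0 to 2 and 0 to 2, and lower ones 0 to 4 and 0 to 1. The summed sebaceous markers were 4885 to 6567 CPM in IMQ_GW3965 and 3372 to 3758 in IMQ_Troglitazone, above the 1270 to 2838 CPM of IMQ_Veh, and the muscle markers 7561 to 10827 and 5480 to 8398 CPM, against 1745 to 6777. Most of the sebaceous sums was Scd1, a lipid enzyme gene, at means of 4534 CPM in IMQ_GW3965, 2761 in IMQ_Troglitazone and 1780 in IMQ_Veh. They thus do not measure the amount of gland. The part of these shifts in the results for the hair genes was not tested.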

How the data were processed

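Each library came with a gene table of RSEM. Its expected counts (estimated reads per gene, unscaled) and TPM values, both as deposited by the authors per the file headers, were used. Alignment with STAR 2.7.3a, counting with RSEM 1.3.3, and the build GRCm38 are named in the submitters' processing notes. Annotation release and strand setting were not given in the sources used here. RSEM divides reads that fit several genes, so near-identical Krtap and keratin copies are uncertain, and antisense partners may be mixed. GENCODE M21 gave symbols for 52083 of 55416 identifiers; 21 of 22 keratin symbols were matched. Coordinates are from GENCODE M21 and upstream sequences from RefSeq (GRCm38.p6).

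Expected counts were rounded and tested in R 4.3.3 with edgeR 4.0.16 (filterByExpr, TMM, quasi-likelihood test, all 12 libraries in 1 fit, 17130 genes, Benjamini-Hochberg adjustment, threshold 0.05), a procedure tested on simulated data. The simulation gave every gene the same spread, so it does not bear on genes whose counts came mainly from a single library. CPM are TMM-scaled. Alternatives included DESeq2 1.42.0 and limma-voom (limma 3.58.1). Libraries of a group always differed by more than sampling noise (lowest chi-square per degree of freedom 7.79).

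Members and lists were chosen with earlier results of these data known. Named were members by class and called list genes with the largest folds, up to 4 per list. Tchh, Hoxc13, Krtap7-1, Krtap8-1 and Krt35 were named after their values were seen.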

Additional observations from a re-analysis of the deposited data

How the results depend on the processing

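Without a pairing in the labels (replicate numbers deviated together in 4 of 18 pairs, r -0.221 to 0.312), a replicate block was run only as an alternative: it changed no member's call, turned Krt27 to 0.01 and Krt71 to 0.60 in IMQ_Veh against UTX_Veh, and left 131 genes called between the drugs in place of 319. In IMQ_Veh against UTX_Veh, members called stayed at 2 or 3 in each direction. There, limma-voom gave 0.11 for Krt27 and 1.24 for Krt71; leaving out each library in turn gave -1.78 to 1.22 for Krt25, -0.94 to 0.98 for Krt27 and -2.23 to 4.56 for Krt71, each highest without UTX_Veh replicate 3; and without UTX_Veh replicate 3, IMQ_Veh replicate 1 and IMQ_Troglitazone replicate 3 (chosen after seeing the data), Krt27 was 0.71.

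The drug comparisons moved more, and the cause was not tested. For GW3965 (1129 genes, 1 member higher), DESeq2 called 2222 genes and 2 members higher, a fit of the 2 groups only 102 and 0, the lane field as covariate 549 and 0, fits without those 3 libraries 222 and 0, fits without IMQ_Veh replicate 3 and IMQ_GW3965 replicate 3 (also chosen after seeing the data) 3041 genes, and leaving out each library in turn 105 to 3645 genes and 0 to 1 member. For troglitazone (1600 genes, 0 members), the same settings gave 2590 genes with 1 member higher and 1 lower, 0 genes, 1009 genes, 0 genes, and 4166 genes with 1 member higher and 1 lower; leaving out each library gave 162 to 4460 genes and 0 to 1 member in each direction. Between the drugs (319 genes), DESeq2 called 942, no filter 140, the 2 groups only 9, fits without either set of libraries 0, and leaving out each library 0 to 73. Over the same fits, Krt84 with GW3965 was -0.04 (without IMQ_GW3965 replicate 3) to 0.57, and Krt32 with troglitazone -0.38 (without IMQ_Troglitazone replicate 3) to 1.41, and -0.68 without the 3 libraries. Krtap3-2 with GW3965 kept its direction under all 19 alternatives (1.62 to 3.09) and its call in 11.

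Depth limits the genes below the count rule, whose counts of a few reads cannot show differences between groups. The filter of 10 counts in 6 libraries gave no value for the sparse members it removed.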

Other observations

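The 12 genes listed as melanocyte markers gave no common direction. Their summed level was 66.4 to 76.4 CPM in UTX_Veh, 54.4 to 74.5 in IMQ_Veh, 45.5 to 55.2 in IMQ_GW3965 and 59.8 to 79.6 in IMQ_Troglitazone. Kit, Mitf and Sox10 were the most abundant of them in UTX_Veh, at means of 21.8, 16.9 and 12.3 CPM. Of 9 tested markers, 3 were higher and 3 lower in IMQ_Veh against UTX_Veh, where 61.9% of all genes were called. Tyr, Dct and Pmel were higher, with log2 fold changes of 1.25, 0.72 and 0.98. Kit, Mitf and Sox10 were lower, with -1.01, -0.72 and -1.17. Tyrp1, Slc24a5 and Mlana (0.80, 0.15 and -0.08) were not called. Bulk values do not show in which cells these genes changed. Without IMQ_Veh replicate 2 none was higher, without UTX_Veh replicate 2 or UTX_Veh replicate 3 only 1 was, and over the 8 fits that left out libraries the higher markers numbered 0 to 4 and the lower 1 to 3. With GW3965 1 marker was lower and with troglitazone 1 was higher, against 6.59% and 9.34% of all genes. Without IMQ_Veh replicate 3, 5 were lower with GW3965, and 1 was higher and 2 lower with troglitazone; without any other single library compared, neither comparison called a marker by edgeR.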
